A study of Homo sapiens with 12 samples.

Results

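Lysosome and autophagy genes were followed in the human colorectal carcinoma line HCT116, in cells that carried a knockout of KDM3A (KO) or were wild type (WT). The list holds 44 genes chosen by symbol, and all 44 were present among the 26372 gene symbols measured by sequencing of polyadenylated RNA. Each genotype was kept in 3 culture states. Mock cells kept their normal medium, starved cells had serum withdrawn, and refed cells were given fetal bovine serum after 24 h lacking it. The 6 groups are therefore KO mock, KO starved, KO refed, WT mock, WT starved and WT refed. The KDM3A protein removes methyl groups from lysine 9 of histone H3, and no other allele or agent is named. How the knockout was made, how many clones were used and the time from serum addition to harvest are not given in the sources used here. The labels list 2 samples per group, but each group has 1 deposited column of FPKM, a level scaled to transcript length and to the total of mapped fragments. No spread between replicates is therefore known.

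Lysosomes are acidic compartments in which hydrolases break down material delivered by endocytosis and autophagy. A proton pump, the V-ATPase, acidifies them, and highly glycosylated membrane proteins such as LAMP1 line them. In autophagy a membrane grows around cargo, small ubiquitin-like proteins of the ATG8 family are joined to its lipids, and the closed vesicle fuses with a lysosome. TFEB, TFE3 and MITF are related transcription factors that bind E-box sequences in the promoters of many of these genes. When nutrients are plentiful the kinase mTORC1 keeps TFEB and TFE3 in the cytoplasm. Much of this control acts on proteins, which were not measured.

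The site that these factors prefer is an E-box, CACGTG, best within TCACGTGA. RefSeq promoter windows of 300 bases around the annotated gene start (GRCh38.p14) were found for 37 of the 44 genes. Both motifs read the same on both strands, and the longer one contains the shorter. The E-box was present for 9 of the 37 (24.3%) and for 12.6% of 9704 genes that were compared and had a window. TCACGTGA was present for 6 of the 37 (16.2%), namely MCOLN1, GAA, LAMP1, CTSA, ATP6V0D1 and ATG3, and for 2.23% of the 9704. LAMP1 held 6 copies of CACGTG, of which 2 were TCACGTGA. The stretches below come from 3 of these genes and show the motifs in their surroundings. A further TCACGTGA of GAA, with its CACGTG starting at -31, and the last of LAMP1, with its CACGTG starting at -1, lie outside the stretches shown. The stretches lie on the plus strand from -80 to -1 (MCOLN1), -110 to -45 (GAA) and -210 to -11 (LAMP1) relative to the RefSeq start. They are written 5′ to 3′ and have the motifs in capitals.
MCOLN1, chr19:7522544-7522623: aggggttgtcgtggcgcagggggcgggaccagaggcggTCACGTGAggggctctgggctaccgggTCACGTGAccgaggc
GAA, chr17:80101471-80101536: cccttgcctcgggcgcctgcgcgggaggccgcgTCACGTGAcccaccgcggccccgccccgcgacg
LAMP1, chr13:113297029-113297228: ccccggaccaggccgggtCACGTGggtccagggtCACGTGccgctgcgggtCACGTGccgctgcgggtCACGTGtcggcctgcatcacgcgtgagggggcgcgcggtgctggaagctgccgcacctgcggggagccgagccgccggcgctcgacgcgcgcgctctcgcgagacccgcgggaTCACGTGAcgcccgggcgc
A match describes letters and does not show that a factor binds there.

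All 44 genes reached 1 FPKM in at least 1 group, which was the filter for the 13456 features compared, and 43 were at 1 FPKM or more in every group. The exception was MITF, which passed only through its KO values. KDM3A was at 3.01 to 3.59 FPKM in KO groups and 17.8 to 41.3 in WT groups. Endothelial markers were high in WT mock, where 14 of 16 were at 1 FPKM or more and their FPKM summed to 289. In each of the other 5 groups 2 of 16 reached 1 FPKM, with sums of 49.1 to 90.2. These 2 were EGFL7, at 44.2 to 84.3 FPKM in those groups, and ESAM, at 3.69 to 5.19. Markers of colorectal epithelium, the origin of the line, reached 1 FPKM for 7 of 9 in every group, with CDX1 and VIL1 near 0, and summed to 4725 to 5575 in KO and 2127 to 2488 in WT. None of 9 leukocyte markers reached 1 FPKM in any group. No lysosome or autophagy gene belonged to the 87 genes that stood 4-fold or more above all other groups in WT mock. Short RNA features, such as microRNAs and small nucleolar RNAs, were also high in WT mock. There all FPKM summed to 1.15e+06, and to 5.22e+05 without short RNA. In the other 5 groups the sums were 4.81e+05 to 6.29e+05, and 4.44e+05 to 5.94e+05 without short RNA.

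Differences were taken on the log2(FPKM + 1) scale, which understates those of low genes. Where 1 value met 1 value there was no test, and genes at least 1.5-fold apart were counted. For differences averaged over states or genotypes, limma fitted genotype and culture state as additive terms to the 6 values. Its adjusted p (Benjamini-Hochberg over all features, threshold 0.05) therefore reflects the evenness of a difference over the states (or the genotypes), and replicate error does not enter it. "Rose" and "fell" refer to this test.

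KO was compared with WT to see which of these genes differed where KDM3A was lost. The lysosome and autophagy genes did not shift as a block. Averaged over states, 10 of the 44 were called higher, against 28.7% of all features, and 4 fell (9.09%), against 4.58% of all features. MITF, which could be called only as higher because its WT values lay under the filter, is left aside here, and the other 9 of 43 (20.9%) are counted as having risen. Genes that rose were CD68, CTSL, NPC1, MCOLN1, ATP6V1A, ULK1, ATG3, ATG5 and ATG14, and genes that fell were TFE3, CTSB, NPC2 and SQSTM1. The median difference was 0.06 for the 44 and 0.16 for all features; it became -0.08 against 0.03 on the median-ratio scale and -0.13 against -0.01 on the upper-quartile scale. Rescaling by median ratio left 5 called higher, MITF included, and 8 that fell, against 15.2% and 9.29% of all features. Rescaling by the upper quartile gave 5 and 9, against 11.7% and 11.6%. Under all 3 scalings CD68, CTSL, NPC1 and MCOLN1 rose and TFE3, CTSB, NPC2 and SQSTM1 fell, and the text below dwells on these. Without KO mock 12 were called higher and 3 lower, against 37.5% and 4.99% of all features, and without WT mock also 12 and 3, against 37.4% and 5.01%. None passed without KO starved, KO refed, WT starved or WT refed, where at most 0.119% of all features passed in either direction. These fits therefore tell nothing particular about the 44 genes.

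**Figure D1:**
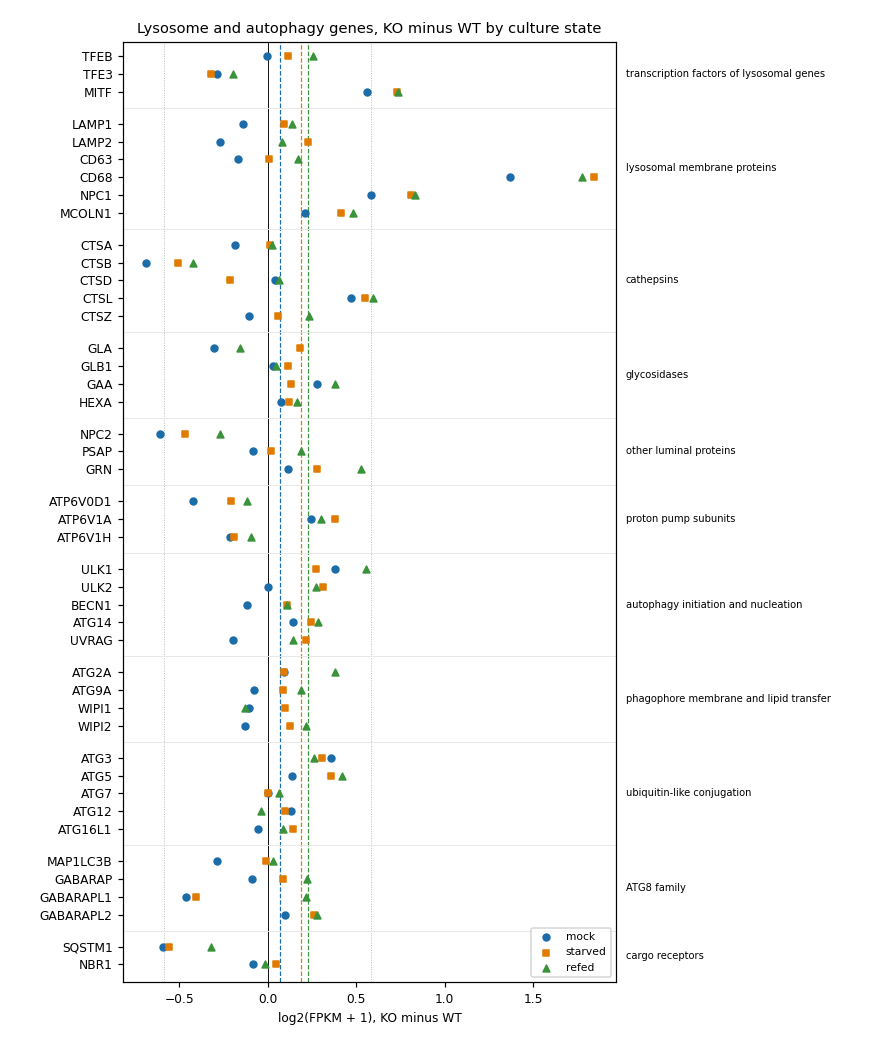
Difference of log2(FPKM + 1), KO minus WT, for 44 genes by role in mock (circles), starved (squares) and refed (triangles) culture. Dashed lines mark the median of all features in each state and dotted lines a 1.5-fold difference; CD68 lies farthest to the right and CTSB, NPC2 and SQSTM1 to the left.

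At 1.5-fold, CD68 was higher and 3 genes (CTSB, NPC2 and SQSTM1) were lower in KO mock than in WT mock, where 5.92% of all features were higher and 5.8% lower. In starved culture MITF, CD68 and NPC1 were higher in KO and 0 genes lower, against 8.45% and 3.11% of all features. In refed culture these 3 and CTSL were higher and 0 lower, against 11.6% and 2.8%. CD68 alone passed 1.5-fold consistently in mock, starved and refed culture, as did 3.95% of all features upward and 1.35% downward. The 3 KO values lay above all 3 WT values for 9 of the 44 genes, against 25.5% of all features, and below them for 3, against 6.09%. MITF is among these 9 and among the genes counted as higher in starved and refed culture. It could be counted only on that side, because its WT values lay under the filter.

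Among the transcription factors, TFEB overlapped between the genotypes. It was at 3.49, 2.44 and 2.35 FPKM in KO cells (mock, starved, refed), against 3.50, 2.18 and 1.81 in WT (log2 0.12, SE 0.08, adjusted p = 0.276). TFE3, the more abundant factor on this per-length scale, was at 9.20, 6.89 and 7.90 FPKM in KO and 11.4, 8.86 and 9.21 in WT. It was lower in KO in each state, though the ranges overlapped, as KO mock lay above WT starved and beside WT refed. The averaged log2 difference of TFE3 was -0.27 (SE 0.06, adjusted p = 0.0276), and -0.41 and -0.45 after median-ratio and upper-quartile rescaling. The adjusted p was 0.0563 without the filter on low values, 0.0530 without KO mock and 0.0535 without WT mock. MITF was at 1.13, 1.0015 and 1.13 FPKM in KO and 0.448, 0.209 and 0.277 in WT. Its KO values lay near the filter and its WT values under it, and its size of difference depended on the pseudocount (log2 0.67 with 1 and 1.57 with 0.1).

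CD68, a heavily glycosylated membrane protein of late endosomes and lysosomes that is used as a macrophage marker, had the largest KO-WT difference of the 44. It was at 32.9, 18.6 and 17.1 FPKM in KO cells (mock, starved, refed), against 12.2, 4.46 and 4.30 in WT. Every KO value was above every WT value (log2 1.66, SE 0.11, adjusted p = 0.00373). The 9 leukocyte markers summed to 0.662, 1.05 and 0.738 FPKM in KO and 0.672, 0.973 and 0.931 in WT. PTPRC was listed at 0 in the 3 KO groups and at 0.0163 FPKM or less in WT, whereas CSF1R was at 0.0575 to 0.103 in KO and 0.0278 to 0.0427 in WT.

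NPC1 and NPC2 act in sequence in moving cholesterol out of the lysosome, and their transcripts differed in opposite directions. NPC1, the membrane partner, was at 15.3, 11.7 and 18.9 FPKM in KO and 9.85, 6.26 and 10.2 in WT, and its KO values were all above its WT values (log2 0.74, SE 0.07, adjusted p = 0.00724). NPC2, the soluble partner, was at 145, 145 and 143 FPKM in KO and 222, 201 and 173 in WT. Its KO values were nearly equal and lay below all WT values (log2 -0.45, SE 0.09, adjusted p = 0.0279). The adjusted p of NPC2 was 0.0519 without the filter on low values.

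The cathepsins, proteases of the lysosomal lumen, also divided. CTSL was at 52.3, 40.9 and 39.2 FPKM in KO cells (mock, starved, refed) and 37.4, 27.6 and 25.6 in WT, with no overlap (log2 0.54, SE 0.06, adjusted p = 0.00969, and 0.34 with adjusted p = 0.0163 on the upper-quartile scale). CTSB was at 81.3, 51.1 and 49.0 FPKM in KO and 132, 73.2 and 66.1 in WT, lower in KO in each state (log2 -0.54, SE 0.08, adjusted p = 0.0148). CTSA, CTSD and CTSZ had averaged differences of -0.05, -0.04 and 0.06 and adjusted p of 0.612, 0.749 and 0.612. CTSA, which protects other lysosomal enzymes, passed as lower in KO after both rescalings (adjusted p = 0.0375 and 0.0252).

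MCOLN1, a calcium channel of the lysosomal membrane with 2 copies of TCACGTGA in its window, was at 7.34, 8.25 and 8.95 FPKM in KO and 6.22, 5.94 and 6.13 in WT. All KO values were the higher ones (log2 0.37, SE 0.07, adjusted p = 0.0253). After median-ratio rescaling the difference was 0.23 (adjusted p = 0.0334), and after upper-quartile rescaling 0.19 (adjusted p = 0.0487). The other genes with TCACGTGA in their windows did not share a direction. GAA, the acid alpha-glucosidase, averaged 0.26 and ATG3 0.31, whereas LAMP1, CTSA and ATP6V0D1 averaged 0.03, -0.05 and -0.25. Of these only ATG3, with MCOLN1, passed the test. LAMP1 was at 58.3 to 65.7 FPKM in KO and 54.3 to 72.6 in WT, which overlap.

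**Figure D2:**
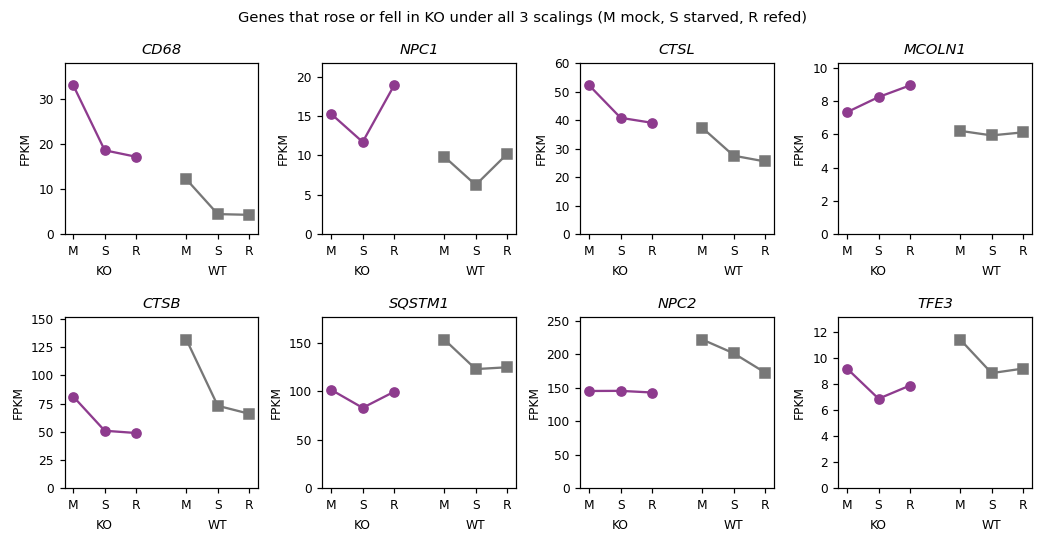
FPKM of 8 genes that passed the test in the same direction under all 3 scalings, with KO (circles) left of WT (squares) and mock, starved and refed (M, S, R) in order; each point is 1 deposited value. KO points lie above WT points for CD68, NPC1, CTSL and MCOLN1 and below them in each state for CTSB, SQSTM1, NPC2 and TFE3.

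The remaining lysosomal genes averaged between -0.25 and 0.31, and of these ATP6V1A passed. LAMP2 and CD63, abundant membrane proteins, averaged 0.01 and 0.00. The glycosidases GLA, GLB1 and HEXA averaged -0.09, 0.06 and 0.12, and none passed. PSAP, the precursor of the saposins that help degrade sphingolipids, was among the highest of the list at 272 to 343 FPKM in KO and 241 to 363 in WT (adjusted p = 0.724). GRN, the progranulin gene, was at 126 to 134 FPKM in KO and 88.4 to 124 in WT, without overlap (log2 0.31, adjusted p = 0.0797). Of the proton pump subunits, ATP6V1A rose (log2 0.31, adjusted p = 0.0208), and ATP6V0D1 and ATP6V1H averaged -0.25 and -0.17 (adjusted p = 0.0727 and 0.0828). After median-ratio rescaling these 2 subunits passed as lower (adjusted p = 0.0132 and 0.0181) and ATP6V1A no longer passed.

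SQSTM1, the autophagy receptor p62 that links ubiquitinated cargo to ATG8 proteins, had the largest decrease among the autophagy genes. It was at 102, 83.1 and 99.7 FPKM in KO cells (mock, starved, refed), against 154, 123 and 125 in WT. The highest KO value lay below the lowest WT value (log2 -0.49, SE 0.09, adjusted p = 0.0195). NBR1, the other cargo receptor of the list, was at 23.5, 17.0 and 15.7 FPKM in KO and 25.0, 16.4 and 15.8 in WT (log2 -0.02, adjusted p = 0.815).

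The upstream autophagy genes showed smaller differences. ULK1, the kinase that starts autophagy, was at 14.8, 10.8 and 12.2 FPKM in KO and 11.1, 8.81 and 7.99 in WT (log2 0.40, SE 0.07, adjusted p = 0.0219). ATG14, a subunit of the lipid kinase complex built around BECN1, rose by 0.22 (adjusted p = 0.0493), and BECN1, UVRAG and ULK2 did not pass. Of the conjugation enzymes, ATG3 and ATG5 rose (0.31 and 0.30), and ATG7, ATG12 and ATG16L1 averaged 0.02, 0.06 and 0.06. None of ULK1, ATG14, ATG3 or ATG5 passed after either rescaling. The membrane genes ATG2A, ATG9A, WIPI1 and WIPI2 averaged -0.05 to 0.19, and none passed.

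In the ATG8 family, GABARAP was the most abundant, at 135 to 147 FPKM in KO and 122 to 144 in WT. GABARAPL2 was at 66.2 to 80.4 FPKM in KO and 54.6 to 75.1 in WT. MAP1LC3B, which encodes the common autophagosome marker LC3B, was at 36.6, 31.6 and 38.7 FPKM in KO and 45.02, 31.9 and 37.9 in WT. None of the 4 family members passed on the deposited scale, and MAP1LC3B passed as lower after both rescalings (adjusted p = 0.0392 and 0.0252). GABARAPL1 changed its order with culture. It was at 27.0 and 25.0 FPKM in KO mock and KO starved, against 37.7 and 33.5 in WT mock and WT starved, but at 46.5 in KO refed against 39.9 in WT refed. MAP1LC3B and GABARAPL1 have near-identical copies elsewhere in the genome, so their values are uncertain.

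**Figure D3:**
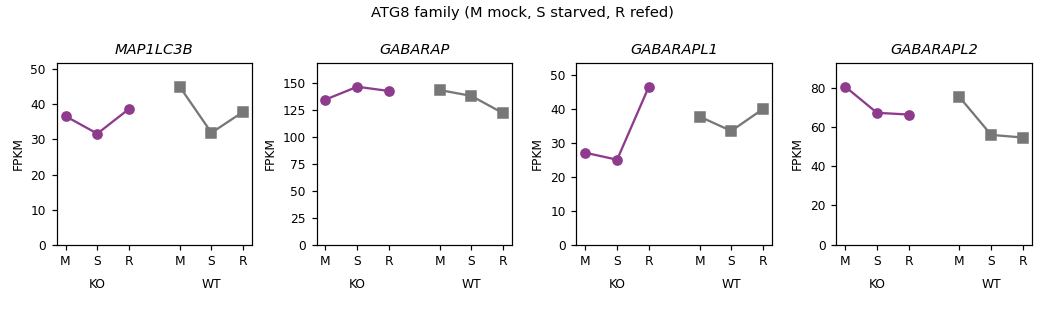
FPKM of 4 ATG8 family genes, with KO (circles) left of WT (squares) and mock, starved and refed (M, S, R) in order; each point is 1 deposited value. GABARAPL1 is highest in KO refed, and all 4 genes overlap between genotypes.

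Epithelial marker sums were higher in every KO group than in every WT group, as given above, and WT mock held endothelial transcripts. The epithelial sums came mostly from KRT8, KRT18 and KRT19. EPCAM, CDH1 and CLDN3 were also higher in every KO group than in every WT group. CDX2 overlapped, at 7.10, 9.24 and 7.52 FPKM in KO (mock, starved, refed) and 7.51, 8.60 and 6.51 in WT. The part of either set of markers in the KO-WT differences was not tested. In refed culture EGFL7 alone made up 65.1 of the endothelial sum of 70.5 in KO and 44.2 of 49.1 in WT. There CD68, NPC1, CTSL and MCOLN1 were higher in KO by 1.77, 0.83, 0.60 and 0.48. CTSB, SQSTM1, NPC2 and TFE3 were lower there (-0.42, -0.32, -0.27 and -0.20). In bulk RNA a change in the mix of cells and a change per cell cannot be told apart.

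The comparison of starved with mock culture asked how these genes stood after serum withdrawal. Lysosome and autophagy transcripts were mostly lower in starved cells. Averaged over genotypes 0 of the 44 rose and 13 fell (29.5%), against 5.83% and 19.4% of all features. At an unadjusted p under 0.05, 1 was higher and 22 lower, against 11.2% and 31.4% of all features. In both genotypes 35 of the 44 were lower in starved than in mock culture, against 52.9% of all features. Higher in both genotypes were 2, ATP6V0D1 and HEXA, against 24.7% of all features. After median-ratio rescaling 28 of 44 were lower in both, against 43.1% of all features. The median was -0.29 for the 44 and -0.13 for all features, a gap of -0.16 that became -0.15 on the median-ratio scale and -0.14 on the upper-quartile scale.

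The genes that fell were TFEB, TFE3, LAMP2, CD68, CTSB, CTSL, NPC1, ATP6V1A, ATG3, ATG12, ATG16L1, WIPI1 and NBR1. After both rescalings TFEB, LAMP2, CD68, CTSB, CTSL, NPC1, ATP6V1A, WIPI1 and NBR1 still fell. No call was made without WT mock, and likewise without WT starved, WT refed, KO starved or KO refed, and without the filter on low values. In these fits at most 0.134% of all features fell and at most 0.0372% rose, so they tell little about the 44 genes. Without KO mock 18 genes fell, against 26.6% of all features.

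At 1.5-fold, 0 genes were higher and 2 lower in KO starved than in KO mock, against 3.49% and 5.96% of all features. In WT 0 were higher and 5 lower, against 3.14% and 13.9%. CD68 and CTSB were lower in both genotypes, and LAMP2, ATP6V1A and WIPI1 in WT.

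CD68 showed the largest decrease. It was at 18.6 FPKM in KO starved against 32.9 in KO mock, and at 4.46 in WT starved against 12.2 in WT mock (averaged log2 -1.03, SE 0.14, adjusted p = 0.0182). CTSB was at 51.1 FPKM in KO starved against 81.3 in KO mock, and at 73.2 in WT starved against 132 in WT mock (log2 -0.75, SE 0.10, adjusted p = 0.0183). WIPI1, which binds the lipid made at the growing autophagic membrane, was at 8.37 FPKM in KO starved against 12.5 in KO mock, and at 7.77 in WT starved against 13.6 in WT mock (log2 -0.63, SE 0.08, adjusted p = 0.0186).

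LAMP2, a receptor and structural protein of the lysosomal membrane, was at 11.8 FPKM in KO starved against 15.4 in KO mock, and at 9.94 in WT starved against 18.8 in WT mock. Its averaged difference was -0.60 (SE 0.13, adjusted p = 0.0390), with -0.36 in KO and -0.85 in WT, and -0.39 (adjusted p = 0.0794) without WT mock. TFEB fell (log2 -0.45, adjusted p = 0.0360), at 2.44 FPKM in KO starved and 2.18 in WT starved, against 3.49 and 3.50 in the mock groups. ATP6V1A, the catalytic subunit of the pump, fell by 0.58 on the log2 scale, and NBR1 by 0.51.

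ATP6V0D1, a subunit of the membrane sector of the pump, had the opposite sign to ATP6V1A. It was at 19.6 FPKM in KO starved against 13.9 in KO mock, and at 22.8 in WT starved against 19.0 in WT mock (log2 0.36, adjusted p = 0.0607). After median-ratio and upper-quartile rescaling it passed as higher (adjusted p = 0.0154 and 0.0133). HEXA, a hexosaminidase subunit, had 0.05. Of the 6 genes with TCACGTGA in their windows, ATP6V0D1 and MCOLN1 averaged 0.36 and 0.05, and GAA, CTSA, LAMP1 and ATG3 averaged -0.10, -0.10, -0.29 and -0.38.

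**Figure D4:**
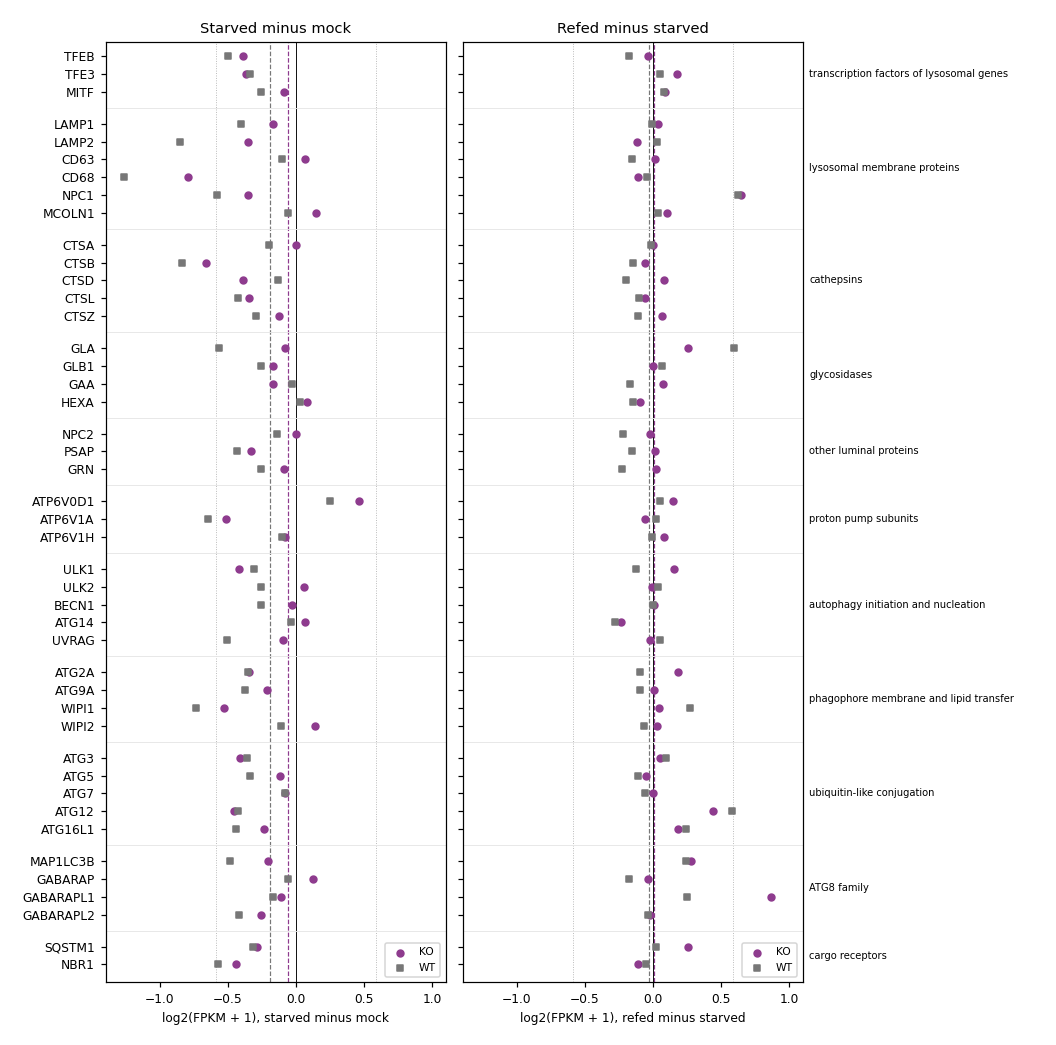
Differences of log2(FPKM + 1) for 44 genes by role, starved minus mock on the left and refed minus starved on the right, in KO (circles) and WT (squares). Dashed lines mark the median of all features in each genotype and dotted lines a 1.5-fold difference; most points lie left of 0 after starvation, and NPC1, ATG12 and GABARAPL1 lie right of 0 after refeeding.

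Endothelial marker sums were 57.6 in WT starved against 289 in WT mock, and 68.9 in KO starved against 90.2 in KO mock. EGFL7 alone was at 52.5 in WT starved, 77.2 in WT mock, 63.8 in KO starved and 84.3 in KO mock. The part of endothelial transcripts in the WT decreases was not tested. In KO alone, with 2 of 16 endothelial markers at 1 FPKM or more in either state, 35 of the 44 genes were lower in starved cells. There 9 were higher, as were 41.6% of all features, and the median was -0.17 against -0.06 for all features. In WT 42 of 44 were lower, with a median of -0.33 against -0.19. The starved-mock difference was less negative in KO than in WT for 37 genes, as it was for 72.5% of all features. After median-ratio rescaling this held for 26 genes and for 49.8% of all features. No test of the difference between genotypes was possible with 1 value per group.

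The comparison of refed with starved culture asked how they responded to serum. Few lysosome and autophagy genes differed by much. Over genotypes limma called 0 of the 44 in either direction, against 0.773% of all features that rose and 0.052% that fell. At an unadjusted p under 0.05, 5 were higher and 1 lower, against 6.44% and 3.16% of all features. The median was -0.01 for the 44 and also for all features. At 1.5-fold, 2 genes were higher and 0 lower in KO (NPC1 and GABARAPL1), against 3.5% and 0.795% of all features, and 2 were higher and 0 lower in WT (NPC1 and GLA), against 3.04% and 1.27%.

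NPC1 was at 18.9 FPKM in KO refed against 11.7 in KO starved, and at 10.2 in WT refed against 6.26 in WT starved. The log2 difference was 0.65 in KO and 0.62 in WT (averaged 0.63, SE 0.09, adjusted p = 0.0888, and 0.0331 and 0.0356 after the rescalings). ATG12, the ubiquitin-like protein joined to ATG5, was at 15.4 FPKM in KO refed against 11.03 in KO starved, and at 15.8 in WT refed against 10.2 in WT starved (log2 0.51, SE 0.08, adjusted p = 0.0959). GLA, the alpha-galactosidase, was at 19.9 FPKM in KO refed against 16.5 in KO starved, and at 22.3 in WT refed against 14.4 in WT starved. GABARAPL1 had the largest gap between genotypes, at 0.87 in KO and 0.25 in WT, a difference of 0.62 that has no test.

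In GENCODE 29, ATG12, WIPI1 and ATG7 share 8.72%, 28.5% and 32.2% of their exon bases with AP3S1, ARSG and VGLL4 on the opposite strand. No use of strand in counting is stated, so reads there cannot be told apart. AP3S1 was at 112 to 166 FPKM in KO and 92.4 to 122 in WT. It was at 112 FPKM in KO refed against 116 in KO starved, and at 93.7 in WT refed against 92.4 in WT starved. ARSG was higher in starved than in mock culture, at 2.64 FPKM against 2.19 in KO and 4.43 against 2.71 in WT. VGLL4 was at 21.8 to 28.9 FPKM in KO and 14.6 to 15.6 in WT. ATG7 was far lower, at 3.09 to 3.32 FPKM in KO and 2.92 to 3.31 in WT.

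A further 6 lists held 127 other genes of these pathways, of which 122 were compared. In KO against WT, 33 of the 122 rose and 4 fell, against 28.7% and 4.58% of all features, with a median of 0.17 against 0.16. Of other lysosomal hydrolases and their activators, 11 of 28 rose and 2 fell. Legumain (LGMN), an asparaginyl protease, was at 63.7, 44.01 and 43.3 FPKM in KO and 29.2, 17.4 and 17.1 in WT (log2 1.23, SE 0.07, adjusted p = 0.00290). The sialidase NEU1 and cathepsin H (CTSH) rose by 0.99 and 0.66. Of other membrane proteins, 6 of 15 rose and 0 fell, with the sialic acid exporter SLC17A5 at 0.81 (15.0, 13.8 and 14.0 FPKM in KO and 8.63, 7.35 and 7.27 in WT), LAPTM4B at 0.70 and LAMP3 at 0.69. NEU1 was at 33.2 to 36.4 FPKM in KO and 14.3 to 20.7 in WT.

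For the next 4 lists, too, the deposited-scale shares of all features were 28.7% that rose and 4.58% that fell. Other V-ATPase subunits gave 3 that rose and 0 that fell of 14, led by ATP6V0B (0.43), ATP6V1F (0.36) and ATP6V1B2 (0.28). Other autophagy machinery gave 4 and 0 of 26, led by ATG9B (0.51), TMEM41B (0.48) and ATG4D (0.32). Among mTORC1 and TFEB regulators, 4 rose and 2 fell of 22. The genes that fell were SESN3 (log2 -0.71), a sestrin that restrains mTORC1, and DEPTOR (-0.57), an inhibitory mTOR partner, and MLST8, a subunit of the mTOR complexes, rose (0.54). Of delivery and fusion genes, 5 of 17 rose and 0 fell, led by GNPTG (0.52), SORT1 (0.51) and M6PR (0.44), which act in sorting enzymes to the lysosome. After median-ratio rescaling 22 of the 122 rose and 9 fell, against 15.2% and 9.29% of all features. On that scale 9 hydrolases rose and 3 fell, 3 membrane proteins rose and 0 fell, and 1 V-ATPase subunit rose and 0 fell. The autophagy machinery gave 2 and 3, the mTORC1 and TFEB regulators 3 and 3, and the delivery and fusion genes 4 and 0.

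In starved against mock culture 5 of the 122 rose and 32 fell, against 5.83% and 19.4% of all features, with a median of -0.16 against -0.13 for all features. After median-ratio rescaling 17 rose and 29 fell, against 13.6% and 16.3% of all features. In refed against starved culture limma called 0 of these genes on the deposited scale, against 0.773% of all features that rose and 0.052% that fell.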

How the data were processed

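RNA of 6 groups of HCT116 cells was measured, with 12 labelled samples and 1 deposited column per group. FPKM values were computed by the authors, per the file headers. Per the submitters' processing notes, FastQC, cutadapt and TopHat2 were used with genome build hg19. The versions, the program that computed FPKM and its annotation are not given in the sources used here. FPKM carries no read counts, so depth is unknown and no counting interval is given. Whether the 2 samples of a group came from separate cultures, and how they relate to its column, is not stated.

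From the deposited FPKM, log2(FPKM + 1) was taken for 13456 features, those that reached 1 FPKM in any group. R 4.3.3 with limma 3.58.1 (additive model, variance trend, 2 residual degrees of freedom) and Python 3.11.15 (pandas 2.3.3, numpy 2.4.6; figures by matplotlib 3.10.9) were used. The fit was tested on simulated data. The gene list, the further lists and the tests were chosen with earlier results of these data known. Values are given in full for TFEB, TFE3, MITF, the ATG8 family, genes 1.5-fold apart in the same direction in all states or both genotypes, and the 4 largest differences in each direction past the threshold. From the further lists up to 3 genes with the largest KO-WT differences past the threshold are named; levels of NEU1 and SLC17A5 were added. AP3S1, ARSG and VGLL4 were chosen for their overlap. Genes that the text names beyond this rule were chosen by role. Alternatives were 2 rescalings, a pseudocount of 0.1, other filters (none, or 5 FPKM), features left out of the fit, no variance trend, a 2-fold threshold and each value left out in turn. Promoter sequences are from RefSeq (GRCh38.p14), and overlaps from GENCODE 29.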

Additional observations from a re-analysis of the deposited data

How the results depend on the processing

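No paired analysis was possible because each group has 1 column that carries no replicate number. The 12 single-gene differences recomputed kept their direction under every alternative run; 6 of them no longer passed without the low-value filter, and all 12 lost their call without KO starved, KO refed, WT starved or WT refed. On the median-ratio and upper-quartile scales 5 and 5 of the 44 were called higher in KO, against 15.2% and 11.7% of all features. MITF is included in each such count. Under the same rescalings 8 and 9 fell in KO, against 9.29% and 11.6%, and 2 fell without the low-value filter, against 2.68%. WT mock left out and median-ratio rescaling together was an alternative added after seeing the data. It gave 4 called higher in KO, against 8.78% of all features, and 0 that fell in starved cells, against 0.0892%. Counts with 1 value left out ranged from 0 to 12 (higher) and 0 to 3 (fell) in KO. The shares of all features ranged from 0.0223% to 37.5% and from 0.0149% to 5.01%. In starved cells 0 to 18 fell, against 0% to 26.6% of all features. All of these fits have 1 residual degree of freedom. In starved cells 1 rose under either rescaling, against 13.6% and 16.7% of all features. At the 5 FPKM filter and without short RNA 1 rose, against 7.58% and 7.32%. Without the filter 0 fell, against 0.0128%. In refed cells 1 rose under either rescaling (1.01% and 0.847% of all features) and without short RNA (1.4%), and 2 at 5 FPKM (1.86%).

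For the counts in this paragraph no share of all features was taken, so they cannot be read as high or low for these genes. At 2-fold the counts of 1.5-fold differences became 1 higher in KO in starved and in refed culture and 0 lower in mock. They became 0 and 1 lower in starved KO and WT, and 0 higher in refed KO and WT. With a pseudocount of 0.1, 3 were higher in KO mock and 11 lower in WT starved. After median-ratio and upper-quartile rescaling 4 and 4 were lower in KO starved, 1 and 2 lower in KO refed and 3 and 3 lower in WT starved than mock; after the second, 2 were higher in KO refed and 1 lower in KO starved than mock. Medians for KO against WT were 0.11 in starved and 0.178 in refed culture on the deposited scale, against 0.186 and 0.224 for all features. After the rescalings they became -0.0665 and -0.107 in starved culture, against 0.0287 and -0.00391 for all features. In refed culture they became -0.0385 and -0.104, against 0.0311 and -0.0198. For starved against mock in WT they became -0.163 and -0.114, against -0.0281 and 0.0103. Refed against starved gave -0.0385 in KO after upper-quartile and 0.00102 in WT after median-ratio rescaling, against -0.0373 and -0.00734 for all features. The cause of these changes was not tested beyond the rescaling itself.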
